A study of Gallus gallus with 38 samples.

Results

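Cytokines, chemokines and their receptors were followed in the jejunal and cecal mucosa of broiler chickens. The genes were those whose single platform symbol began with IL and a digit, CCL, CCR, CXCL, CXCR, XCR, TNFSF or TNFRSF. Of 83 matching symbols, *IL15*, *CCR9*, *CXCL12*, *CXCR5* and *CXCL13L2* were left out by the rule, as was *IL4I1* (an amino acid oxidase), so that 77 genes remained of the 11528 named genes on the array. They comprised 7 chemokine ligands, 9 chemokine receptors, 19 interleukin ligands, 27 interleukin receptors and binding proteins, 6 tumor necrosis factor (TNF) superfamily ligands and 9 TNF receptor superfamily members. Each gene was represented by 1 probe set, and only *IL4R* had a choice of 2. *IL22RA2*, *IL28RA*, *IL18RAP* and *TNFRSF4* carried no gene ID in the platform annotation, so that their identity rests on the symbol alone. The rule used the symbols and, for *IL4R*, the mean over all arrays, and no difference between the mucosae.

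Mucosa scraped from the jejunum (19 arrays) was compared with mucosa scraped from the cecum (19 arrays) of 19 numbered birds, 1 array per number and tissue. A jejunal and a cecal array with the same number were taken as 1 bird, as the titles and the study's methods have it, although the sampling protocol in the labels speaks of 38 birds, and all within-bird counts rest on this. All birds were Ross 308 males, a fast-growing meat line, aged 42 days, vaccinated, reared in a single poultry house and fed a common commercial diet in 3 phases, and no bird received a treatment that others did not. According to the study, the birds came from several pens and were selected for even body weight. Birds whose RNA was degraded in either tissue were left out. No test here took the pen into account, and birds were treated as independent. The comparison addressed how the 2 mucosae differ in gene expression under ordinary rearing.

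Cytokines are secreted or membrane-bound proteins through which leukocytes, epithelium and stroma signal to each other. Chemokines guide leukocytes along gradients through G protein-coupled receptors, interleukins act mostly through receptors that pair several chains, and TNF superfamily ligands cluster receptors that recruit TRAF or death-domain adaptors. Decoy and scavenger receptors bind a ligand without passing on its usual signal. Birds lack the encapsulated lymph nodes of mammals, and much of their gut immunity is organised in the mucosa itself, in Peyer's patches and in the tonsils at the base of the ceca.

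The deposited values were log2 signals of 18308 probe sets, with array medians between 5.57 and 5.75 and single signals between 0.85 and 13.8. Signals of different probe sets are not on a common scale, so that each gene was compared only with itself, and the number of arrays limits the precision. Of the 77 genes, 38 had a mean signal under 5 in both mucosae, called dim below. Although every sample description names oxyntic mucosa, the acid-secreting lining of the stomach, the tissue labels name jejunum and cecum. None of 6 measured oxyntic markers passed the limma test described below (0 also at an unadjusted p under 0.05), with array means of 3.48 to 4.29 in jejunum and 3.58 to 4.66 in cecum. Neither this test nor these levels can tell whether the samples are gastric, since gastric samples in both groups would also not differ. The 10 jejunal absorptive markers had array means of 8.84 to 11.1 in jejunum and 4.78 to 7.19 in cecum.

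The jejunal array of bird 19 stood apart from the other 18. It gave the highest jejunal signal for 27 of the 77 genes and the lowest for 3, its mean over 9 B and plasma cell markers was 8.50, against at most 6.83 in the other jejunal arrays, and its absorptive marker mean of 8.84 was the lowest, next to 9.63. Its mean over 5 posterior gut HOX genes, 4.24, was the highest in jejunum, next to 3.95, with cecal arrays at 4.60 to 5.18. Among cecal arrays, that of bird 3 gave the highest signal for 22 genes and the lowest for 17.

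Differences were tested with limma and Benjamini-Hochberg adjustment over all 18308 probe sets. The main model held the tissue alone, so that the arrays of a bird were treated as unpaired. A model with bird as a block was an alternative, and the counts of birds only describe direction. A differentially expressed transcript (DET) had a fold change ratio (FCR) of at least 2, that is, a log2 difference of at least 1 in either direction, and an adjusted p under 0.05. Of the 77 genes, 7 were DETs with the higher signal in jejunum (9.09%) and 2 with the higher signal in cecum (2.60%), against 3.68% and 3.62% of all probe sets and 4.09% and 4.52% of the named genes. The jejunal DETs were *CCL1*, *IL12RB2*, *CCL20*, *IL18*, *CCL19*, *IL7R* and *IL13RA1*, and the cecal DETs were *IL8L1* and *IL22RA2*. With no threshold on fold, 25 genes were higher in jejunum (32.5%, against 20.1% of all probe sets and 22.0% of named genes), 10 were higher in cecum (13.0%, against 25.1% and 29.1%) and 42 did not pass the test. The same background shares apply to the counts of classes, markers and lists below. Differences of jejunum minus cecum ran between -1.45 and 1.41, with a median of 0.02 over the 77 genes and -0.03 over all probe sets. In scraped mucosa, fewer cells of a type and less RNA per cell cannot be told apart.

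**Figure D1:**
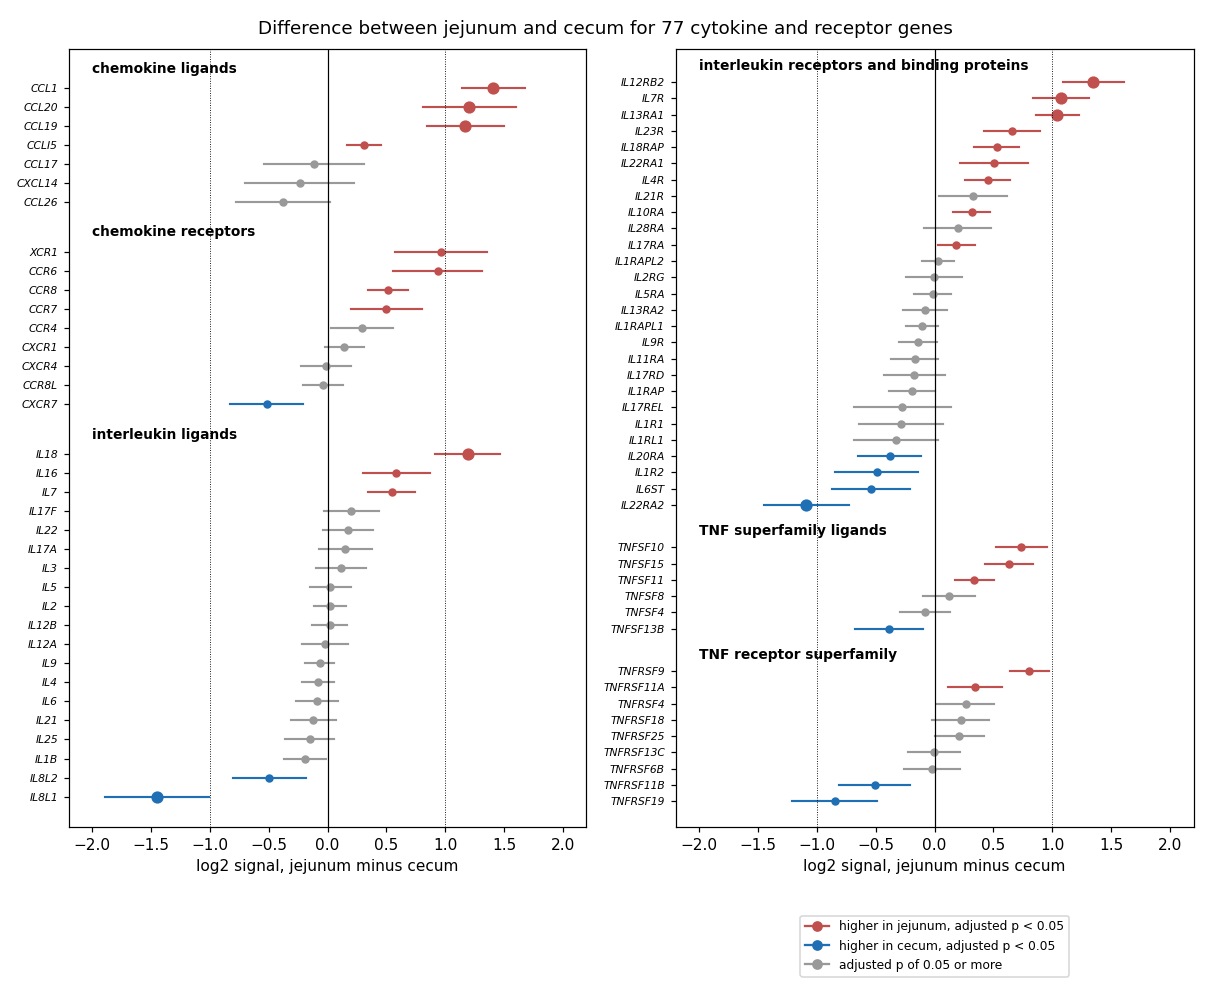
Log2 difference of jejunum minus cecum (x axis) for each of the 77 genes, grouped by class, with bars for the 95% confidence interval from limma over 19 arrays per tissue, large points for DETs and dotted lines at a 2-fold difference. Jejunal DETs fall among the chemokine ligands, interleukin ligands and interleukin receptors, with *CCL1* at 1.41, and the cecal DETs are *IL8L1* at -1.45 and *IL22RA2* at -1.09.

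Among the 7 chemokine ligands by symbol, 4 were higher in jejunum, 0 were higher in cecum, and 3 of the 4 were DETs. *IL8L1* (-1.45) and *IL8L2* (-0.49), also chemokines but counted with the interleukins by their symbols, were both higher in cecum. *CCL1*, in mammals the ligand of CCR8, had jejunal signals with a lowest, median and highest value of 6.15, 6.75 and 7.82, and cecal signals of 4.52, 5.32 and 6.18. The ranges overlapped by little, with 17 of 19 jejunal arrays above the highest cecal array, and the jejunum was higher within all 19 birds. Its mean was 6.72 ± 0.39 in jejunum and 5.31 ± 0.45 in cecum (SD, n = 19 each), an FCR of 2.66 (log2 difference 1.41 ± 0.13 SE, adjusted p = 4.3e-12, limma). *CCL1* was the only gene of the 77 whose difference was itself significantly larger than 2-fold when tested against that bound with limma's TREAT (adjusted p = 0.0481).

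*CCL20*, which draws CCR6-bearing lymphocytes and dendritic cells to gut epithelium in mammals, had jejunal signals of 4.68, 5.97 and 8.38 (lowest, median, highest) and cecal signals of 4.30, 4.78 and 5.38. The jejunal arrays were far more spread than the cecal ones, and 16 of 19 lay above every cecal array. Its mean was 6.04 ± 0.85 in jejunum and 4.84 ± 0.30 in cecum (SD, n = 19 each; FCR 2.30, log2 difference 1.20 ± 0.20 SE, adjusted p = 1.8e-06, limma). The within-bird difference was above 0 in 18 birds and 0 in 1, with the largest, 3.59, in bird 6, whose jejunal signal of 8.38 was the highest.

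*CCL19*, which guides CCR7-bearing lymphocytes and mature dendritic cells into lymphoid tissue in mammals, had jejunal signals of 6.07, 6.42 and 8.12 and cecal signals of 4.98, 5.52 and 6.45 (lowest, median, highest). The ranges overlapped, since 8 of 19 jejunal arrays lay above the highest cecal one. The mean was 6.71 ± 0.63 in jejunum and 5.54 ± 0.40 in cecum (SD, n = 19 each), with an FCR of 2.25 (log2 difference 1.17 ± 0.16 SE, adjusted p = 8.1e-08, limma; jejunum higher in 18 of 19 birds). The highest jejunal signal belonged to bird 19, and without that array the difference was 1.09 (adjusted p = 5.3e-08). Of the other chemokine ligands, *CCLI5*, dim in both mucosae, was higher in jejunum by 0.31 (adjusted p = 4.5e-04). *CCL17* (-0.12), *CXCL14* (-0.24) and *CCL26* (-0.38) did not pass the test. *CCL26* passed without bird 8 (-0.51, adjusted p = 0.018), whose jejunal signal was the highest.

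**Figure D2:**
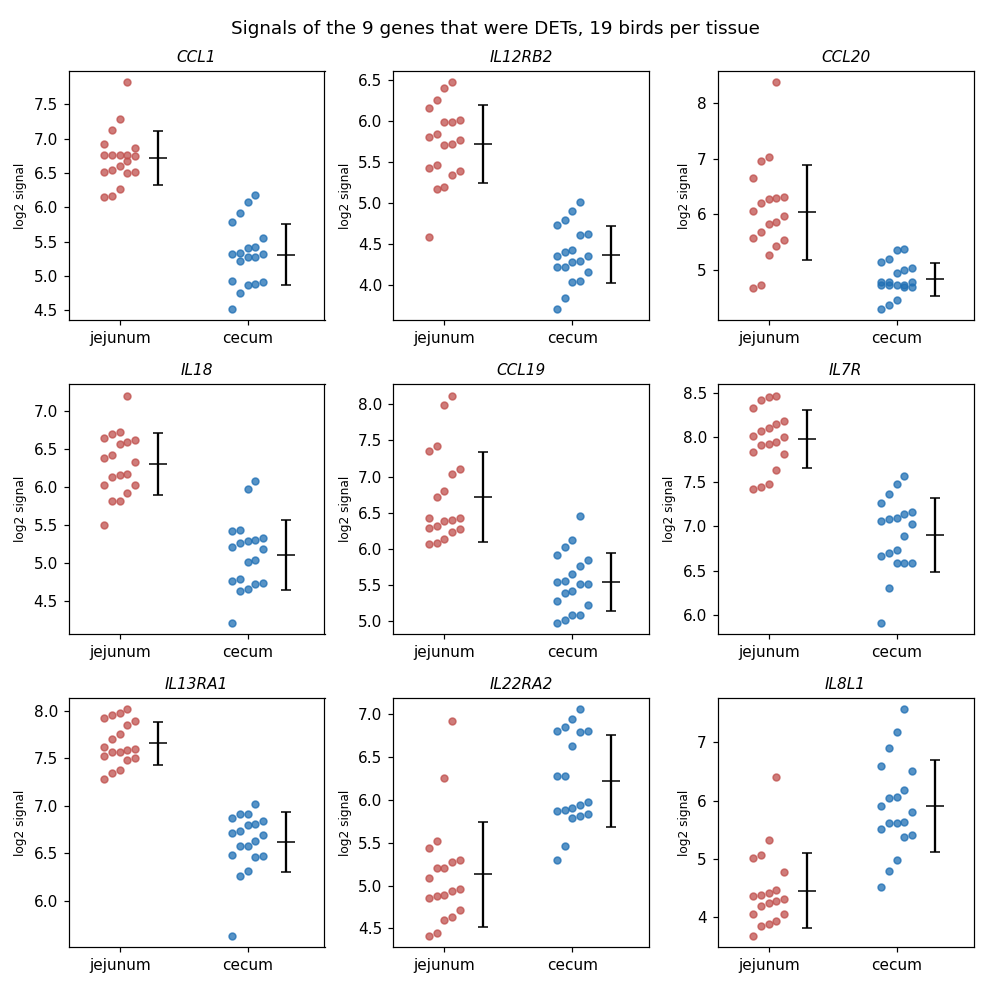
Log2 signal (y axis) of the 9 DETs in each jejunal and cecal array of 19 birds, with 1 panel per gene and its own axis range, 1 point per array and the mean ± SD beside the points. The jejunal and cecal ranges are separate only for *IL13RA1*, and the SD of *CCL20* is 0.85 in jejunum and 0.30 in cecum.

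No chemokine receptor was a DET, but 4 of 9 were higher in jejunum and 1 was higher in cecum. The receptors of the 3 jejunal ligands were among the 4. *CCR6*, the CCL20 receptor, had jejunal signals of 4.47, 6.02 and 7.54 and cecal signals of 3.86, 5.25 and 5.64 (lowest, median, highest), and 16 jejunal arrays lay above the highest cecal one. Its log2 difference was 0.94 ± 0.19 SE (adjusted p = 5.3e-05, limma, 17 of 19 birds), and 0.85 without the jejunal array of bird 19. It became a DET without bird 14 (1.00, adjusted p = 2.4e-05). *CCR7*, the CCL19 receptor, spanned 5.70 to 8.20 in jejunum, with a median of 6.22, and 5.11 to 6.77 in cecum, with a median of 5.99.

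The tissue ranges of *CCR7* overlapped widely, and only 2 jejunal arrays lay above the highest cecal one. The log2 difference was 0.50 ± 0.15 SE (adjusted p = 0.0053), and 0.40 (adjusted p = 0.00472) without the jejunal array of bird 19, which read 8.20 where the other 18 read 5.70 to 6.80. *CCR8* was higher in jejunum by 0.51 ± 0.08 SE (adjusted p = 2.4e-06, 18 of 19 birds), with means of 5.07 ± 0.32 in jejunum and 4.55 ± 0.18 in cecum (SD, n = 19 each). The CCR8-like gene *CCR8L*, dim in both mucosae, did not follow it (-0.04, adjusted p = 0.759, limma). *CCR4*, which in mammals binds CCL17, did not pass the test at 0.29 (adjusted p = 0.0668), but did with bird as a block (adjusted p = 0.00573), with arrays centred on their medians (0.35, adjusted p = 0.0266) and without bird 3 (0.33, adjusted p = 0.0427).

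*XCR1*, the receptor of XCL1 and a mark of cross-presenting dendritic cells in mammals, had jejunal signals of 3.86, 5.68 and 6.52 and cecal signals of 3.58, 4.60 and 5.40 (lowest, median, highest). The jejunum was higher in 18 of 19 birds although the tissue ranges overlapped. Its difference of 0.96 ± 0.19 SE (FCR 1.95, adjusted p = 5.9e-05, limma) lay just below the DET threshold. It passed that threshold without bird 6 (1.06), without bird 10 (1.00), with arrays centred on their medians (1.01) and after quantile normalization (1.00). *XCL1* itself, a T and natural killer cell product outside the 77 genes, ran between 6.43 and 7.87 in jejunum and between 3.88 and 5.92 in cecum, an FCR of 3.54 (adjusted p = 5.9e-14).

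*CXCR7*, a scavenger of CXCL12 that signals little through G proteins, was the 1 chemokine receptor higher in cecum. It had jejunal signals of 5.55, 6.54 and 7.56 and cecal signals of 6.37, 6.96 and 8.06 (lowest, median, highest), which overlapped widely, with a log2 difference of -0.52 ± 0.15 SE (adjusted p = 0.00532, cecum higher in 14 of 19 birds). *CXCR4*, the signalling receptor of CXCL12, was at 5.00 ± 0.39 in jejunum and 5.01 ± 0.25 in cecum (SD, n = 19 each; difference -0.01, 95% interval -0.22 to 0.20). In jejunum, *CXCR4* read 6.44 in bird 19 and 4.66 to 5.24 in the other 18.

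Most interleukin ligands did not pass the test. Of 19, 3 were higher in jejunum (*IL18*, *IL16* and *IL7*), 2 were higher in cecum (*IL8L1* and *IL8L2*, both chemokines) and 14 did not pass. *IL18*, a cytokine that is matured by caspase-1 and induces interferon gamma in lymphocytes, had jejunal signals of 5.50, 6.33 and 7.20 and cecal signals of 4.22, 5.18 and 6.08 (lowest, median, highest). The jejunum was higher within all 19 birds, by 0.21 to 1.96, and 13 jejunal arrays lay above the highest cecal one. The means were 6.30 ± 0.41 in jejunum and 5.11 ± 0.46 in cecum (SD, n = 19 each), an FCR of 2.28 (log2 difference 1.19 ± 0.14 SE, adjusted p = 7.7e-10, limma).

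*IL7*, a stromal and epithelial survival factor for lymphocytes, was at 3.68 ± 0.36 in jejunum and 3.14 ± 0.24 in cecum (SD, n = 19 each; difference 0.55 ± 0.10 SE, adjusted p = 1.1e-05, 18 of 19 birds), both in the dim range. *IL16*, a chemoattractant of CD4+ cells in mammals, averaged 6.59 ± 0.45 in jejunum and 6.00 ± 0.46 in cecum (SD, n = 19 each; difference 0.59 ± 0.14 SE, adjusted p = 6.1e-04, 17 of 19 birds). Its highest jejunal signal, 7.75, was that of bird 19, and without that array the difference was 0.52 (adjusted p = 9.4e-04).

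*IL8L1* and *IL8L2* are CXC chemokines related to mammalian CXCL8, which attract heterophils, the avian counterpart of neutrophils, and were counted with the interleukins by their symbols. *IL8L1* had jejunal signals of 3.68, 4.31 and 6.40 and cecal signals of 4.52, 5.80 and 7.57 (lowest, median, highest). The ranges overlapped, 14 jejunal arrays lay below every cecal one, and the cecum was higher in 18 of 19 birds. Its mean was 4.46 ± 0.64 in jejunum and 5.91 ± 0.79 in cecum (SD, n = 19 each), an FCR of 2.73 toward cecum (log2 difference -1.45 ± 0.22 SE, adjusted p = 5.0e-07, limma). The highest jejunal signal, 6.40, came from bird 19, next to 5.32, and without that array the difference was -1.56 (adjusted p = 1.5e-08). *IL8L2*, dim in both mucosae, was higher in cecum by a smaller amount, with a log2 difference of -0.49 ± 0.15 SE (adjusted p = 0.00723, 15 of 19 birds).

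*CXCR1*, which binds CXCL8-type chemokines, did not pass the test at 0.14 (95% interval -0.03 to 0.31, adjusted p = 0.168). It passed without bird 3 (0.19, adjusted p = 0.0487) and after quantile normalization (0.17, adjusted p = 0.049). Of 7 measured heterophil and mast cell markers, 4 were higher in jejunum and 2 in cecum, with array means of 5.25 to 5.99 in jejunum and 5.12 to 5.80 in cecum. The list mixed mast cell genes, such as *KIT* and *HDC*, with genes of heterophils, such as *CSF3R* and *MMP9*. Its counts therefore describe neither cell type alone. The 4 higher in jejunum were *KIT* (0.53), *HDC* (0.55), *GATA2* (0.20) and *CTSG* (0.82, adjusted p = 7.7e-04). *CSF3R* (-0.36, adjusted p = 0.0239) and *MMP9* (-0.53, adjusted p = 4.1e-05) were higher in cecum, as was *IL8L1*, and *LECT2* did not pass (-0.05). The part of heterophils and mast cells in the *IL8L1* result was not tested.

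Several ligands that steer helper T cell subsets or are made by them did not pass the test over all arrays. Differences were -0.02 for *IL12A* and 0.02 for *IL12B* (the subunits of IL-12), 0.02 for *IL2*, -0.08 for *IL4*, 0.15 for *IL17A*, 0.20 for *IL17F*, 0.17 for *IL22* and -0.12 for *IL21*. All of these were dim in both mucosae, and a missed threshold does not show equal levels. *IL17F* passed without bird 3 (0.27, adjusted p = 0.0474), with array weights (0.25, adjusted p = 0.0458), without birds 3 and 19 and without 4 arrays, and *IL22* passed without 4 arrays (0.23, adjusted p = 0.0479). *IL1B*, an inflammatory product of macrophages, had a difference of -0.19 (adjusted p = 0.0795, and 0.0324 at the lowest when 1 bird, 8 or 11, was left out), and *IL6* one of -0.09.

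Interleukin receptors held the most members and 4 DETs. Of 27, 9 were higher in jejunum and 4 in cecum. *IL12RB2*, the signalling chain of the IL-12 receptor found on activated T and natural killer cells in mammals, had jejunal signals of 4.59, 5.77 and 6.47 and cecal signals of 3.71, 4.36 and 5.01 (lowest, median, highest). All but 1 jejunal array lay above the highest cecal one, and the jejunum was higher within all 19 birds. The means were 5.72 ± 0.47 in jejunum and 4.37 ± 0.34 in cecum (SD, n = 19 each), an FCR of 2.55 (log2 difference 1.35 ± 0.13 SE, adjusted p = 8.7e-12, limma).

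*IL23R*, the specific chain of the IL-23 receptor on type 17 lymphocytes in mammals, was higher in jejunum by 0.66 ± 0.12 SE (adjusted p = 1.1e-05, 18 of 19 birds). *IL18RAP*, the accessory chain of the IL-18 receptor, was higher by 0.53 ± 0.10 SE (adjusted p = 1.3e-05, 18 of 19 birds), although its means of 3.02 ± 0.36 in jejunum and 2.49 ± 0.23 in cecum were dim. *IFNG*, the interferon gamma that IL-12 and IL-18 induce in lymphocytes, was dim in both mucosae and did not pass the test, at 2.01 ± 0.20 in jejunum and 1.97 ± 0.23 in cecum (SD, n = 19 each; difference 0.03, adjusted p = 0.744).

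*IL7R*, the IL-7 receptor alpha chain of lymphocytes, had jejunal signals of 7.42, 8.00 and 8.47 and cecal signals of 5.92, 7.03 and 7.57 (lowest, median, highest). Only the top of the cecal range met the bottom of the jejunal one, and 16 jejunal arrays lay above every cecal array. The means were 7.98 ± 0.33 in jejunum and 6.91 ± 0.41 in cecum (SD, n = 19 each), an FCR of 2.10 (log2 difference 1.07 ± 0.12 SE, adjusted p = 3.0e-10, limma, 18 of 19 birds). *IL2RG*, the common gamma chain that pairs with IL7R and with the receptors of IL-2, IL-4 and IL-21, averaged 7.49 ± 0.36 in jejunum and 7.50 ± 0.38 in cecum (difference -0.01, 95% interval -0.24 to 0.23).

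*IL13RA1*, the chain shared by receptors for IL-4 and IL-13 on epithelium and myeloid cells, was the 1 DET whose ranges did not meet. It had jejunal signals of 7.28, 7.60 and 8.02 and cecal signals of 5.63, 6.69 and 7.02 (lowest, median, highest), and both tissues varied little. The means were 7.66 ± 0.23 in jejunum and 6.62 ± 0.32 in cecum (SD, n = 19 each), an FCR of 2.06 (log2 difference 1.04 ± 0.09 SE, adjusted p = 3.7e-13, limma). The lowest cecal array was that of bird 3, and without that bird the difference was 0.99 (adjusted p = 4.1e-14), below the DET threshold. *IL4R*, its partner chain, was higher in jejunum by 0.45 ± 0.09 SE (adjusted p = 1.0e-04, 17 of 19 birds). Of the 77 genes, *IL13RA1* and *TNFRSF9* had every jejunal array above every cecal one, and none had the reverse, against 1.73% and 1.22% of all probe sets.

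The signalling and the soluble receptor of IL-22 took opposite directions. IL-22 acts on gut epithelium through IL22RA1 to renew it and to induce antimicrobial proteins, and IL22RA2 is, in mammals, a soluble receptor that captures IL-22 without a signal. *IL22RA2* had jejunal signals of 4.41, 4.96 and 6.92 and cecal signals of 5.30, 5.98 and 7.06 (lowest, median, highest). The cecum was higher in 18 of 19 birds, and 14 jejunal arrays lay below the lowest cecal one. Its mean was 5.13 ± 0.61 in jejunum and 6.22 ± 0.54 in cecum (SD, n = 19 each), an FCR of 2.13 toward cecum (log2 difference -1.09 ± 0.18 SE, adjusted p = 1.9e-06, limma), and the difference was -1.19 without the jejunal array of bird 19.

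*IL22RA1*, by contrast, averaged 8.60 ± 0.36 in jejunum and 8.10 ± 0.55 in cecum (SD, n = 19 each), a log2 difference of 0.50 ± 0.14 SE toward jejunum (adjusted p = 0.00346, 15 of 19 birds). *IL20RA*, which pairs in receptors for IL-20-type cytokines, was higher in cecum (log2 difference -0.38 ± 0.13 SE, adjusted p = 0.0163, 16 of 19 birds), but did not pass after quantile normalization (adjusted p = 0.0546). *IL10RA*, the ligand-binding chain of the receptor for the anti-inflammatory IL-10, was higher in jejunum by 0.32 (adjusted p = 7.9e-04), and *IL17RA*, the common IL-17 receptor chain, by 0.19 (adjusted p = 0.044). The call of *IL17RA* was lost when any of 10 of the 19 birds was left out, with adjusted p up to 0.0824.

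Of the IL-1 system, only *IL1R2*, a decoy that holds IL-1 without signalling in mammals, passed the test. It had jejunal signals of 2.98, 3.59 and 5.19 and cecal signals of 3.16, 4.03 and 6.11 (lowest, median, highest), overlapping in most of their range, with a log2 difference of -0.49 ± 0.17 SE (adjusted p = 0.0187, cecum higher in 15 of 19 birds). The signalling chains *IL1R1* (-0.28, adjusted p = 0.201) and *IL1RAP* (-0.19, adjusted p = 0.108) did not pass. *IL6ST* (gp130), the signalling chain shared by IL-6-type cytokines, was higher in cecum, with means of 6.62 ± 0.61 in jejunum and 7.16 ± 0.45 in cecum (log2 difference -0.54 ± 0.17 SE, adjusted p = 0.00662, 14 of 19 birds).

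*IL17REL*, an IL-17 receptor-like gene, did not pass over all arrays. Its difference was -0.27 (adjusted p = 0.292), and -0.43 (adjusted p = 0.0131) without the jejunal array of bird 19, which read 6.21 where the other 18 read 2.53 to 4.79. *IL21* also passed without that array (-0.19, adjusted p = 0.0416), and *IL17RA* no longer did (adjusted p = 0.0751). The 9 DETs were the same with and without it.

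No gene with a TNFSF or TNFRSF symbol was a DET. *FASLG*, a ligand of the same superfamily without such a symbol, was a jejunal DET and is given below with the other cytokine genes. Of the 6 ligands with a TNFSF symbol, 3 were higher in jejunum and 1 in cecum. *TNFSF10* (TRAIL), which triggers death receptors, had jejunal signals of 10.22, 10.85 and 11.32 and cecal signals of 8.97, 10.15 and 10.71 (lowest, median, highest). The jejunum was higher within all 19 birds, by 0.07 to 2.18, although the ranges overlapped (log2 difference 0.74 ± 0.11 SE, FCR 1.67, adjusted p = 2.1e-07, limma). *TNFSF15* (TL1A), a costimulator of T cells through TNFRSF25, was higher in jejunum by 0.63 ± 0.10 SE (adjusted p = 1.0e-06, 18 of 19 birds), while *TNFRSF25* did not pass the test at 0.21 (adjusted p = 0.09). *TNFRSF25* passed without bird 2 (0.26, adjusted p = 0.0408), without bird 3 (0.25, adjusted p = 0.0462), with array weights and with arrays centred on their medians. *TNFSF13B* (BAFF), a B cell survival factor, was higher in cecum, with means of 5.07 ± 0.50 in jejunum and 5.46 ± 0.42 in cecum (log2 difference -0.39 ± 0.14 SE, adjusted p = 0.023, 15 of 19 birds), but did not pass without bird 6 or without bird 12 (adjusted p up to 0.0665).

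Among TNF receptors, *TNFRSF9* (CD137), a costimulatory receptor of activated T and natural killer cells in mammals, had jejunal signals of 6.46, 6.80 and 7.45 and cecal signals of 5.59, 6.06 and 6.32 (lowest, median, highest). The ranges did not overlap and the jejunum was higher within all 19 birds, with an FCR of 1.75 (log2 difference 0.81 ± 0.08 SE, adjusted p = 5.6e-11, limma), below the DET threshold. *TNFRSF19* (TROY), a receptor found on intestinal stem cells in mice, had jejunal signals of 4.00, 5.28 and 6.58 and cecal signals of 5.41, 6.24 and 7.00. It was higher in cecum in 16 of 19 birds, and 11 jejunal arrays lay below every cecal one (FCR 1.80, log2 difference -0.85 ± 0.18 SE, adjusted p = 1.1e-04).

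The RANKL genes divided in the same manner. TNFSF11 (RANKL) acts through TNFRSF11A (RANK), in mice as the signal for the M cells that sample antigen over Peyer's patches, and TNFRSF11B (osteoprotegerin) is its soluble decoy. *TNFSF11* was higher in jejunum by 0.34 ± 0.08 SE (adjusted p = 7.1e-04) and *TNFRSF11A* by 0.34 ± 0.11 SE (adjusted p = 0.0125), each in 14 of 19 birds. The signals of *TNFSF11* were dim in both mucosae. *TNFRSF11B* was higher in cecum in 16 of 19 birds, at 4.06 ± 0.56 in jejunum and 4.57 ± 0.38 in cecum (log2 difference -0.51 ± 0.15 SE, adjusted p = 0.00425).

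Some genes of known decoys and scavengers were set side by side, a grouping made after their values were seen. Of *IL22RA2*, *TNFRSF11B*, *IL1R2*, *CXCR7*, *IL13RA2* and *TNFRSF6B*, 4 of 6 were higher in cecum and 0 in jejunum, with a median difference of -0.50. Because the genes were chosen with their values known, this count cannot be set against a background share. No conclusion on decoys as a class was drawn from it. *TNFRSF11B*, *IL1R2* and *IL13RA2* were dim in both mucosae, and of the 3 others 2, *IL22RA2* and *CXCR7*, were called when dim probe sets were left out. *IL13RA2* (-0.09) and *TNFRSF6B* (-0.02) did not pass the test.

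**Figure D3:**
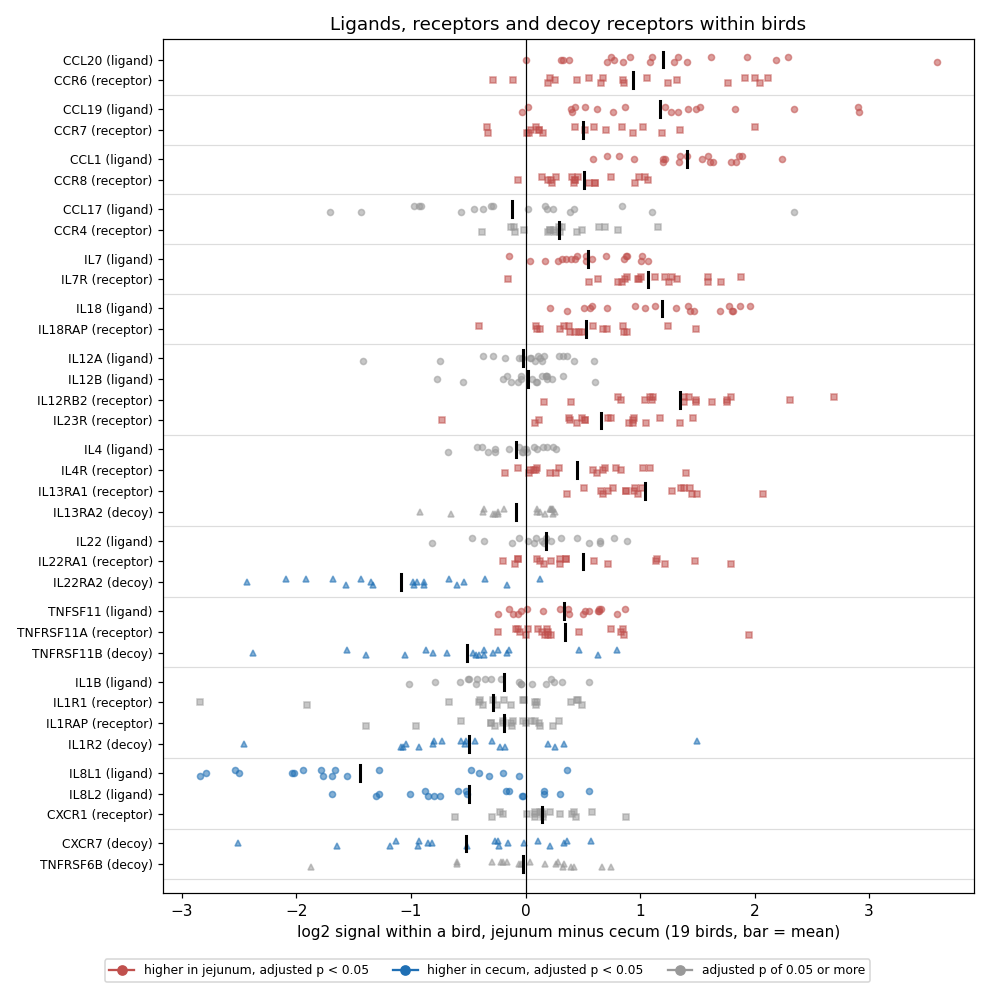
Log2 difference of jejunum minus cecum within each of 19 birds (x axis) for ligands (circles), receptors (squares) and decoys or scavengers (triangles) of the same systems, with bars for the mean and colours for the limma test over all probe sets. *CCL20* and *CCR6*, *CCL19* and *CCR7*, *CCL1* and *CCR8*, and *IL7* and *IL7R* lie to the jejunal side together, whereas *IL22RA2* and *TNFRSF11B* lie to the cecal side of their signalling receptors.

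Markers of the cells that carry many of these receptors differed between the mucosae as well. For comparison, 22.0% of all named genes were higher in jejunum and 29.1% in cecum. Only listed markers found under a single symbol on the array were counted. These were 16 of 20 for T and cytotoxic cells, 9 of 17 for B and plasma cells, and 8 of 19 for macrophages and dendritic cells. Of 16 measured T and cytotoxic cell markers, 12 were higher in jejunum and 0 in cecum (median difference 0.74). The array means of all 16, 6.27 to 7.14 in jejunum, did not meet those of 5.32 to 6.20 in cecum. The 4 markers that did not pass were *CD4* (0.18), *CD5* (0.11), *CD2* (-0.05) and *CTLA4* (-0.03). *IL7R*, *IL12RB2*, *IL23R*, *IL18RAP*, *TNFRSF9* and *CCR8* were also higher in jejunum, whereas *IL2RG*, *IL21R*, *TNFRSF4*, *TNFRSF18* and *TNFRSF25* did not pass the test. Covariation with the markers over arrays was not tested. Of 9 B and plasma cell markers, 1 was higher in jejunum and 5 in cecum (array means 5.92 to 8.50 in jejunum and 6.37 to 7.56 in cecum). The B cell factor *TNFSF13B* was also higher in cecum. *TNFRSF13C*, which encodes a receptor for it, was dim in both mucosae and did not pass the test (-0.002, adjusted p = 0.991, limma). Of 8 macrophage and dendritic cell markers, 2 were higher in jejunum and 5 in cecum (5.67 to 7.10 in jejunum and 6.16 to 6.98 in cecum). This list pooled cell types, so that its counts describe neither alone. The dendritic cell gene *FLT3* (0.89) and *LYZ* (0.58) were higher in jejunum, as was *XCR1*. *MRC1* (-0.80), *C1QC* (-0.80), *LY86* (-0.78), *MARCO* (-0.48) and *CTSS* (-0.22) were higher in cecum, and *CD86* did not pass. Of 4 red cell markers none passed, and of 5 posterior HOX genes 3 were higher in cecum and 0 in jejunum.

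Stromal markers lay to the cecal side, as did *TNFRSF19*, *CXCR7*, *IL6ST* and *TNFRSF11B*. All 5 measured smooth muscle markers and 8 of 9 fibroblast and endothelial markers were higher in cecum, with array means of 5.30 to 8.65 in jejunum and 7.66 to 9.45 in cecum for smooth muscle, and 5.06 to 8.42 in jejunum and 7.58 to 8.85 in cecum for fibroblasts and endothelium. The jejunal array of bird 2 was the lowest for both lists. Of the cytokine, chemokine and receptor genes, it gave the lowest jejunal signal for 11 and the highest for 9. The 11 included these 4 receptors, but also *CCR6*, *CCR7*, *IL23R* and *IL7R*, which were higher in jejunum. The part of T cell, B cell, myeloid and stromal content in the differences was not tested.

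**Figure D4:**
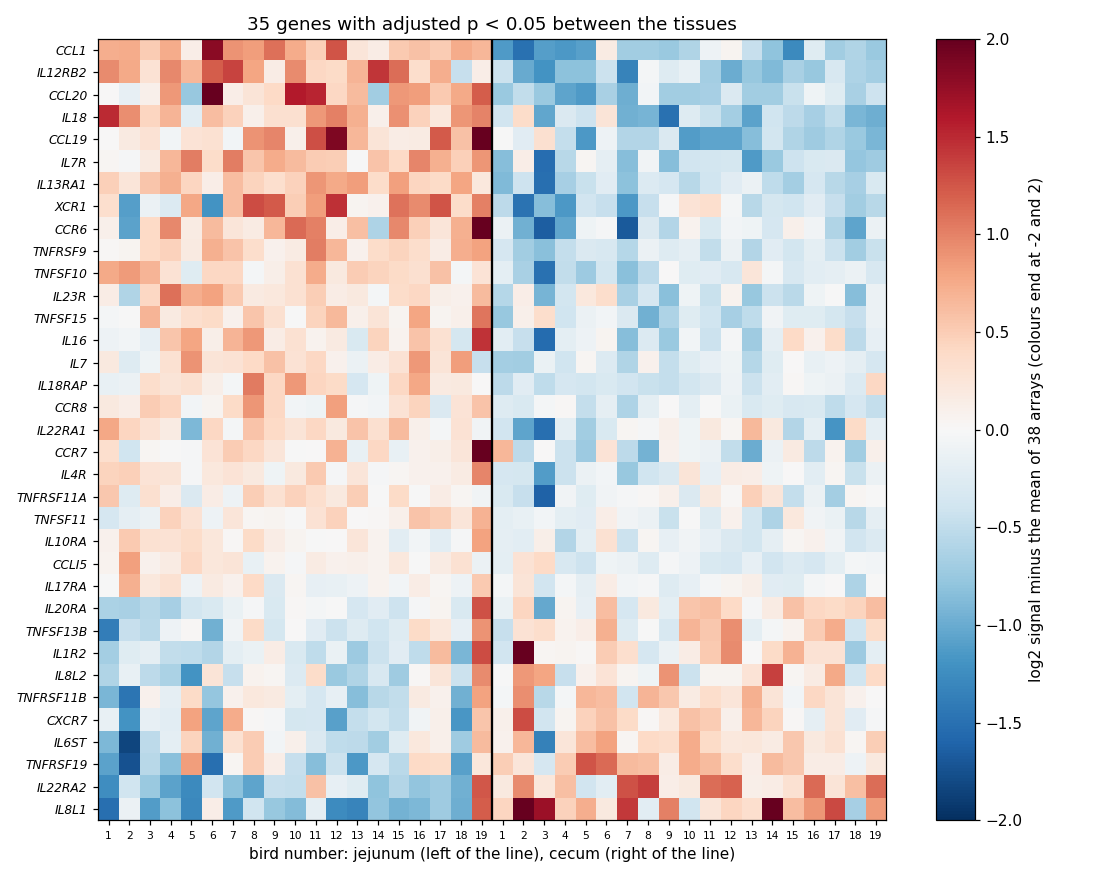
Log2 signal of the 35 genes that passed the test between the mucosae at any fold, in the 19 jejunal arrays (left of the line) and 19 cecal arrays (right of the line), birds in order of their number. Genes run from the highest to the lowest difference of jejunum minus cecum, and colour gives the deviation from the mean of a gene over all 38 arrays. The jejunal array of bird 19 is high both for genes higher in jejunum, such as *CCR7* at 8.20, and for genes higher in cecum, such as *IL8L1* at 6.40.

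The spread between birds was not the same for all genes. In jejunum the SD over 19 birds was largest for *CXCL14* (0.92), *CCL20* (0.85), *CCL17* (0.84), *IL17REL* (0.82) and *XCR1* (0.76). In cecum it was largest for *IL8L1* (0.79), *IL1R2* (0.62), *IL1RL1* (0.58), *CCL26* (0.56) and *CCR6* (0.56). A single array weighed on 2 of these values. For *IL17REL* in jejunum, bird 19 read 6.21 and the next highest 4.79, and for *IL1R2* in cecum, bird 2 read 6.11 and the next highest 4.83. *CXCL14*, a chemokine of epithelium in mammals, spanned 4.40 to 7.55 in jejunum and 4.90 to 7.06 in cecum, and *IL1RL1*, the receptor of IL-33 in mammals, spanned 3.37 to 5.56 in jejunum and 3.27 to 5.96 in cecum. Neither passed the test between the mucosae (*IL1RL1* -0.33, adjusted p = 0.133).

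Whether a bird high in one mucosa was also high in the other was asked with Pearson's r and Spearman's rho over the 19 birds, each with a two-sided permutation test of 100000 resamples, adjusted over all 18308 probe sets. None of the 77 genes passed for either (4 for r and 5 for rho at an unadjusted p under 0.05), against 0.0819% of all probe sets for Pearson's r and 0.0% for rho. The interferon lambda receptor gene *IL28RA*, of a pathway that guards epithelium against viruses, came nearest (r = 0.78, permutation p = 8.0e-05, adjusted p = 0.0697; rho = 0.71, adjusted p = 0.171), and r was 0.67 without the 2 birds farthest from the median jejunal signal. *IL28RA* did not pass the tissue test (0.20, adjusted p = 0.277), but did with bird as a block (adjusted p = 0.0332). *CCR4* followed with r = 0.65 (permutation p = 0.00232, adjusted p = 0.197; rho = 0.65, adjusted p = 0.223), and 0.53 without the 2 farthest birds, and *XCR1* had r = 0.54 (permutation p = 0.0157, adjusted p = 0.377).

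**Figure D5:**
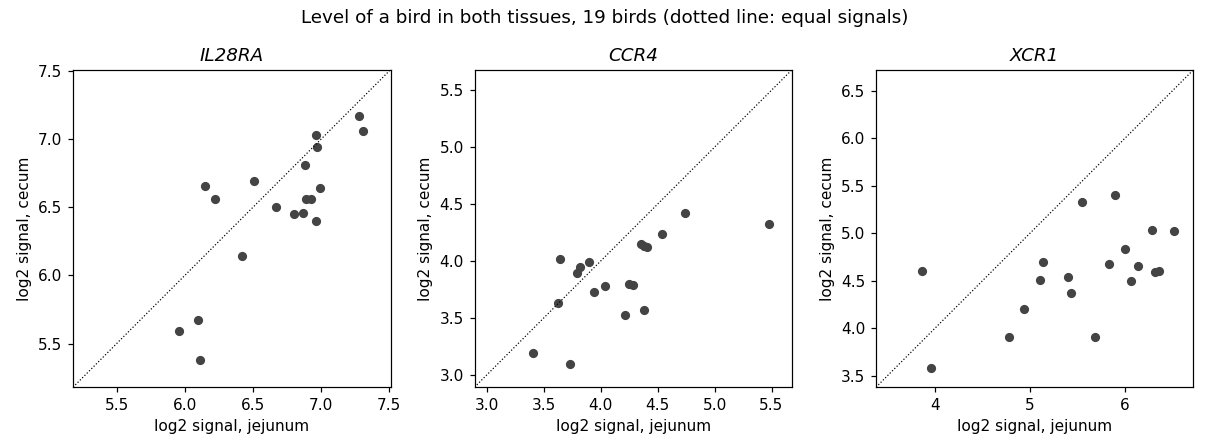
Jejunal log2 signal (x axis) against cecal log2 signal (y axis) of the same bird for *IL28RA*, *CCR4* and *XCR1*, with 1 point per bird (n = 19) and a dotted line at equal signals. Pearson's r is 0.78 for *IL28RA*, 0.65 for *CCR4* and 0.54 for *XCR1*, none of which passed the adjustment over all probe sets.

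Genes that act with these cytokines were followed in 3 lists. Only genes found under a single symbol on the array were counted. These were 20 of 27 JAK-STAT genes, 30 of 44 NF-kB and TRAF genes, and 34 of 64 other cytokine and receptor genes. The shares below stand against 22.0% of named genes higher in jejunum and 29.1% higher in cecum. Of 20 measured JAK-STAT genes, which carry signals from interleukin receptors to the nucleus or regulate them, 6 were higher in jejunum (30.0%) and 3 in cecum (15.0%). Of the 20 genes 0 were DETs, and the median difference was 0.03. Among the kinases and STATs only *JAK3* passed (0.27), whereas *JAK1* (0.14), *JAK2* (0.01), *TYK2* (0.13), *STAT3* (0.01) and *STAT5A* (-0.17) did not. The other calls were inhibitors and phosphatases, namely *CISH*, *PIAS1*, *PTPN6*, *PTPRC* and *SOCS5* in jejunum and *SOCS1*, *SOCS2* and *SOCS6* in cecum. The call of *SOCS1* (adjusted p = 0.0441) was lost after quantile normalization, with median centring and when any of several birds was left out. That of *CISH* was lost without bird 9, 12 or 19, and that of *SOCS5* without 4 arrays. *STAT5A*, *PIAS2* and *PTPN2* passed in some runs. The hematopoietic phosphatase *PTPRC* (CD45) was higher in jejunum by 0.71, and *SOCS2*, a feedback inhibitor, was higher in cecum (log2 difference -0.66, adjusted p = 5.6e-06).

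Of 30 NF-kB and TRAF genes, which serve the TNF, IL-1 and IL-17 receptors, 15 were higher in jejunum and 5 in cecum (median difference 0.23). Examples in jejunum were the adaptors *TRAF5* (0.91, adjusted p = 6.2e-07), *TRADD* (0.67, adjusted p = 3.6e-13) and *TRAF3IP2*, the IL-17 receptor adaptor (0.62, adjusted p = 3.2e-10). *CASP8*, the initiator caspase of death receptors, was the DET of this list and lay in cecum, with signals of 6.08 to 7.28 in jejunum and 7.54 to 8.38 in cecum that did not overlap (log2 difference -1.21, FCR 2.32, adjusted p = 4.8e-15, 19 of 19 birds). The TRAIL gene *TNFSF10* was higher in jejunum while *CASP8*, downstream of its receptors, was higher in cecum.

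Of 34 other cytokine and receptor genes, 10 were higher in each mucosa (29.4%), in cecum near the share of named genes. *XCL1* and *FASLG* were the jejunal DETs and *MIF* was the cecal DET. *FASLG*, the death ligand of cytotoxic lymphocytes, had an FCR of 2.08 toward jejunum (adjusted p = 5.1e-10). *MIF*, a cytokine that restrains macrophage migration, ran from 6.85 to 8.44 in jejunum and from 8.53 to 9.23 in cecum, with no overlap (log2 difference -1.38, FCR 2.60, adjusted p = 2.2e-15).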

How the data were processed

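Total RNA of jejunal and cecal mucosa from 19 birds was hybridised to Affymetrix chicken gene arrays. The authors deposited normalized log2 signals of 18308 probe sets, made from the scanner files in Affymetrix's Transcriptome Analysis Console and used as given. No source used here names their background correction or normalization. Genes were named through the platform annotation, which gave a single symbol to 12300 probe sets, several to 256 and none to 5752, and 73 of the 77 genes carried a gene ID found in RefSeq. Where a symbol had several probe sets, the one with the highest mean over 38 arrays was taken.

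Jejunum minus cecum was fitted with limma 3.58.1 (R 4.3.3), p-values were adjusted across the array by the Benjamini-Hochberg method, and correlations were computed in Python 3.11.15 (numpy 2.4.6). The procedure was tested on simulated data. For limma these held independent noise, without bird effects or deviating arrays, so that they give no error rate for data that hold both. Named with full values were DETs, genes with an adjusted p under 0.05 and a log2 difference of at least 0.5, the 5 genes with the largest SD in each tissue, and the DETs of the pathway lists. Others were named for context, after their values were seen. The genes, the 3 pathway lists and the marker lists were chosen with earlier results of these data known, and markers shared the direction of several results. Arrays that share a bird number were taken as the same bird, from the titles and the study's methods, although the labels' protocol speaks of 38 birds. Their deviations from the tissue means correlated at 0.11 on average (-0.13 to 0.41), against -0.01 between different birds. The bird as a block, other normalizations, array weights, a filter on dim probe sets and the removal of arrays or birds were tried as alternatives.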

Additional observations from a re-analysis of the deposited data

How the results depend on the processing

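The 31 of the 77 genes that the naming rule chose kept the direction of their difference under every alternative run, whereas some genes near 0, such as *IL12A*, *IL12B*, *CXCR4*, *IL2RG* and *TNFRSF6B*, changed sign with 1 bird left out. With bird as a replicate block, 7 genes were DETs in jejunum and 2 in cecum, as without it, and 29 in place of 25 passed in jejunum at any fold (*CCR4*, *IL21R*, *IL28RA* and *TNFRSF4* were gained). Leaving out each bird in turn gave 2 cecal and 6 to 8 jejunal DETs, since *IL13RA1* fell short without bird 3, *XCR1* passed without bird 6 or 10 and *CCR6* without bird 14. Quantile normalization and median centring each gave 8, with *XCR1*. Leaving out 1 bird also brought *CCL26* (bird 8) and *CCR4*, *CXCR1* and *IL17F* (bird 3) past the test. The same held for *IL21R* (bird 14, 15 or 17), *TNFRSF25* (bird 2 or 3) and *TNFRSF4* (bird 14 or 18). *IL17REL* and *IL21* passed without bird 19, and *IL1B* without bird 8 or 11. The lowest adjusted p for each ran from 0.0165 to 0.0491. A test against 2-fold itself (TREAT) left 1 jejunal DET, *CCL1*, and 0 cecal DETs of the 77 genes (1 at an unadjusted p under 0.05), 0 cecal DETs of the NF-kB and TRAF list and 1 jejunal DET, *XCL1*, of the other cytokine and receptor genes, because it asks for a difference significantly above the bound. Of the last list, *TGFBR3* joined *MIF* to make 2 cecal DETs without 4 arrays and without birds 3 and 19, and 1 to 2 when each bird was left out. Without dim probe sets, 6 in place of 10 of its genes passed in cecum, as 4 were no longer tested. The jejunal array of bird 19 was left out as an alternative chosen after the data were seen. Dim signals limit 38 of the 77 genes. Without dim probe sets, 22 in place of 25 genes passed in jejunum and 7 in place of 10 in cecum. *CCLI5*, *IL18RAP*, *IL7* and *TNFSF11* were lost in jejunum and *IL21R* was gained. *IL1R2*, *IL8L2* and *TNFRSF11B* were lost in cecum. The DETs stayed at 7 and 2.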
